A study of Phaseolus coccineus with 4 samples.

Results

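The flavonoid and phenylpropanoid enzyme genes were followed in globular embryos of Phaseolus coccineus, the scarlet runner bean. They were chosen by a rule on the gene symbols of the soybean array's annotation, which uses no measured value but was set with earlier results of these data known. A soybean probe set was a member if its only symbol was a PAL, 4CL, CHS, CHI, CHR, IFS, IFR, F3H, F3'H, FLS, DFR, ANS, ANR, LAR or SOMT gene or UGT1, and no probe set carried an F3'H symbol. This gave 66 of 37593 soybean probe sets, with 31 gene symbols among them. Of these genes, 16 had more than 1 probe set. Probe sets of 1 gene share a symbol and may share a target, but which transcripts they read was not tested. A further 5 probe sets list several symbols of these families, PAL1.1, PAL1.2 and PAL1.3 among them, and were left out; none was above background on any array.

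The study compared the embryo proper, from which the plant grows, with the suspensor, the stalk that anchors and feeds it. Both regions came from 1 cultivar, Hammond's Dwarf Red Flower, at 6 days after pollination by hand, and the labels name no transgene or drug treatment in either group. Each region was represented by 2 samples cut by laser from fixed and sectioned seeds, called biological replicates in the labels, which do not say from which plants they came; p-values therefore measure only the spread between these samples. The RNA that entered amplification was about 60 ng (replicate 1) and 75 ng (replicate 2) in embryo proper and 106 ng and 137 ng in suspensor. Of the marker genes listed for embryo proper, suspensor, endosperm, seed coat and vascular tissue, only LEC1-A and the seed coat gene SCB1 had a probe set, and both were below background on all 4 arrays, so the purity of the regions could not be checked with them.

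The phenylpropanoid pathway starts when phenylalanine ammonia-lyase (PAL) removes ammonia from phenylalanine. Cinnamate 4-hydroxylase (C4H) acts next, and 4-coumarate:CoA ligase (4CL) activates its product. Chalcone synthase (CHS) and chalcone isomerase (CHI) then build the flavonoid skeleton. Branches lead to flavonols, to anthocyanins and proanthocyanidins, and in legumes, by way of isoflavone synthase (IFS), to the isoflavonoids used in defence and in signalling to rhizobia.

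Most members gave no signal above background in either region. Background was set on each array at the 95th percentile over probe sets for Phytophthora and nematode genes, which was 881 and 873 for embryo proper replicates 1 and 2 and 925 and 1034 for suspensor replicates 1 and 2. Of the 66 members, 42 (63.6%) were below that level on all 4 arrays, 7 exceeded it on 1 array and 17 (25.8%) on at least 2 arrays. The corresponding shares of all soybean probe sets were 65.7%, 10.4% and 23.9%, and 4.7% of the Phytophthora and nematode probe sets themselves exceeded the level on at least 2 arrays. On at least 2 arrays the members were thus detected about as often as soybean probe sets in general. That share was higher, 30.1%, for all soybean probe sets with 1 symbol. By gene, 14 of the 31 symbols had a probe set above background on at least 2 arrays, 5 (4CL3, CHS1, CHI1A, CHI1B1 and IFS1) on 1 array at most, and 12 on none. Bean RNA was read by soybean probes, so a signal below background does not show that a transcript was lacking.

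**Figure D1:**
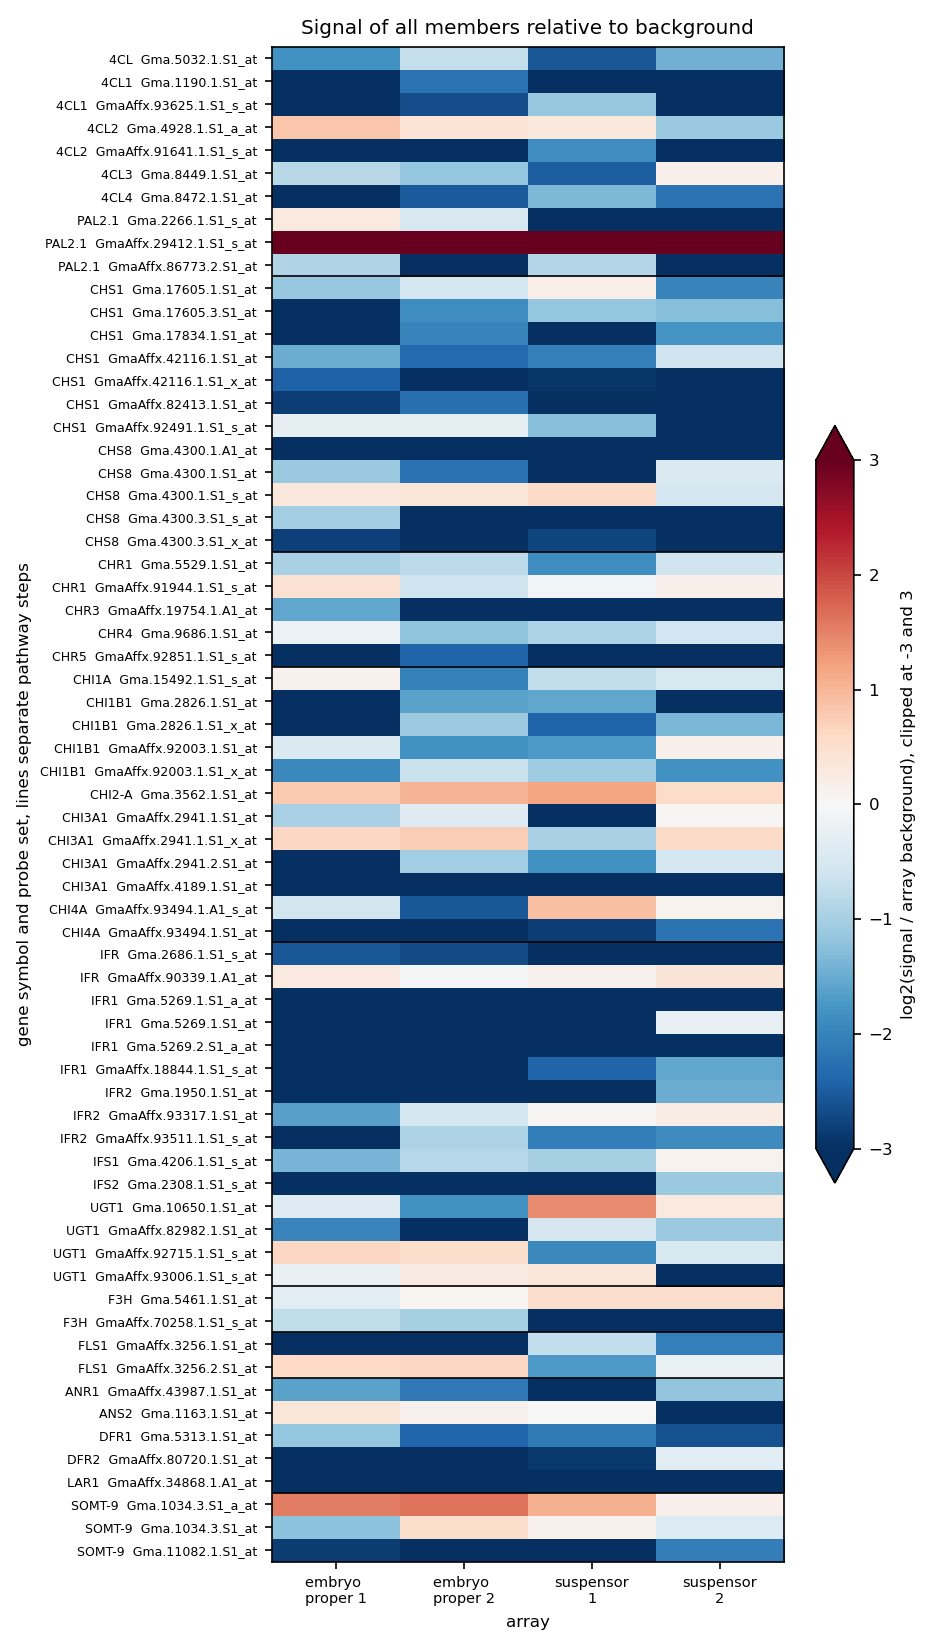
Signal of each of the 66 member probe sets (rows, grouped by pathway step) on each of the 4 arrays (columns), as log2 of the signal over that array's background level; red is above background and blue below. Rows that are blue throughout are the 42 members below background on all 4 arrays, and the dark red row is a PAL2.1 probe set at 419 to 622 times background.

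Detection by region gave 9 members (13.6%) that exceeded background on each embryo proper array and 8 (12.1%) on each suspensor array, against 18.1% and 14.7% of all soybean probe sets. For soybean probe sets with 1 symbol these shares were 23.6% and 20.4%. Only 3 members, 1 probe set each of PAL2.1, CHI2-A and SOMT-9, were above background on all 4 arrays (4.55%, against 11.9% of all soybean probe sets and 17.1% of those with 1 symbol). FLS1, ANS2 and 1 UGT1 probe set (3 of 66, 4.55%) exceeded background in embryo proper alone, on both arrays of that region, as did 2.41% of all soybean probe sets. CHI4A, IFR2 and another UGT1 probe set (3 of 66, 4.55%) did so in suspensor alone, again on both arrays, as did 1.12% of all soybean probe sets. These are counts by threshold, with no test of the difference. At the 99th percentile of the same control probe sets, 3 members (PAL2.1, CHI2-A and SOMT-9) exceeded it on both embryo proper arrays and 1 (PAL2.1) on both suspensor arrays.

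**Figure D2:**
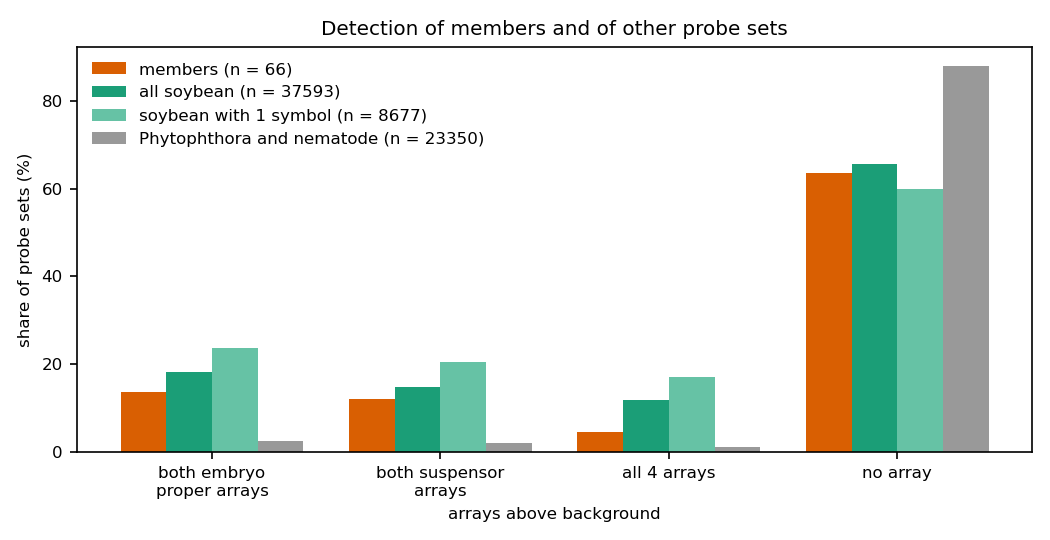
Share of probe sets (%) above background on both embryo proper arrays, on both suspensor arrays, on all 4 arrays and on no array, for the 66 members, all 37593 soybean probe sets, the 8677 soybean probe sets with 1 symbol and the 23350 Phytophthora and nematode probe sets. The members' bar for no array, 63.6%, stands beside 65.7% for all soybean probe sets and 87.9% for the Phytophthora and nematode probe sets.

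Comparing suspensor with embryo proper addresses whether transcripts of these enzymes differ in level between the regions. The 17 members above background on at least 2 arrays, which represent 14 genes, were tested together with all other such soybean probe sets, 8972 in all, in limma on log2(intensity + 16). No member passed: at an adjusted p under 0.05 the calls numbered 0 towards suspensor and 0 towards embryo proper, while 2 members, CHI4A and 1 UGT1 probe set, had p under 0.05 before adjustment. Both of these entered the test through the suspensor arrays alone, where they were above background, so their small p is no support for a difference. Over all tested probe sets 0.892% were called towards suspensor and 1.86% towards embryo proper, so 0 of 17 is near that background. The 95% intervals reached from 0.88 to 3.16 (median 1.43) on each side of the log2 difference, so at this precision changes of several-fold could go undetected in most members. The median log2 difference of the 17 (suspensor minus embryo proper) was 0.12, against -0.18 over all tested probe sets. Centring the arrays on those control probe sets moved these medians to -0.042 and -0.35, and the members' median was -0.15 and -0.12 without embryo proper replicate 1 or 2.

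The regions did not overlap in 5 members with suspensor above and in 5 with embryo proper above, beside 19.8% and 33.4% of all tested probe sets. For the 3 members above background on the suspensor arrays alone (CHI4A, IFR2 and 1 UGT1 probe set) this separation was fixed by the filter, since background was higher on both suspensor arrays. FLS1, ANS2 and another UGT1 probe set passed the filter through the embryo proper arrays alone. Their order of regions is therefore no support for a difference. In all members, fewer cells of a type and less RNA per cell cannot be told apart.

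**Figure D3:**
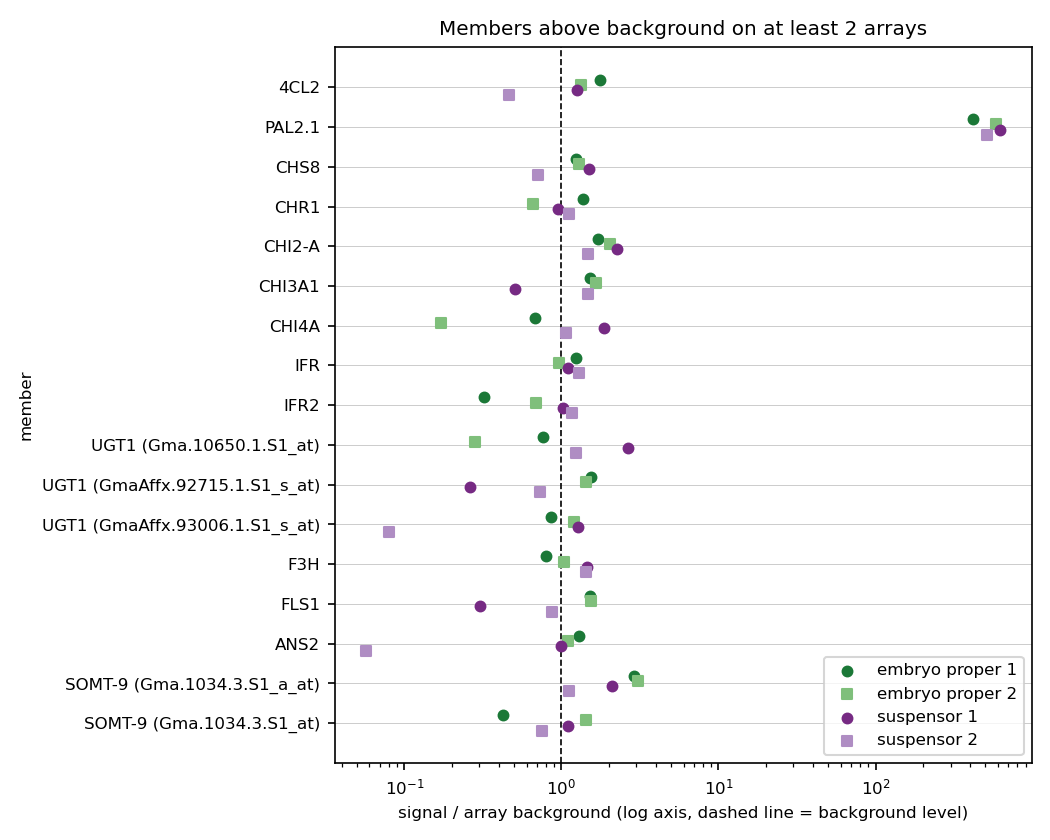
Signal over array background (log axis) for the 17 tested members, with 1 point per array; the dashed line is the background level. All but PAL2.1 lie at or below 3.08 times background, and 14 of the 17 have at least 1 array below the line.

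The entry enzymes were represented by PAL2.1 and 5 4CL symbols. PAL2.1, a phenylalanine ammonia-lyase, had embryo proper signals of 369147 and 513240 and suspensor signals of 575630 and 526240 by the probe set GmaAffx.29412.1.S1_s_at, between 419 and 622 times background. Both suspensor signals lay above both embryo proper signals, but the log2 difference was 0.34 with a 95% interval from -0.59 to 1.27 and did not pass (adjusted p = 0.66 in limma). It was 0.10 and 0.58 without embryo proper replicate 1 or 2. The other PAL2.1 probe sets did not share this brightness. Gma.2266.1.S1_s_at had embryo proper signals of 1071 and 625 and suspensor signals of 85 and 28, with embryo proper replicate 1 alone above background. GmaAffx.86773.2.S1_at was below background throughout, with 468 and 11 for embryo proper and 500 and 35 for suspensor. Signals over 400 times background on all 4 arrays were found for 8 of 37593 soybean probe sets and for 1 of 23350 Phytophthora and nematode probe sets. The bright PAL2.1 probe set has shared probes, which can read more than 1 transcript, and which transcripts it read was not tested. The same limit holds for all 7 tested members with shared probes, among them those of CHS8, CHR1, CHI3A1 and CHI4A.

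4CL2, a 4-coumarate:CoA ligase, had embryo proper signals of 1559 and 1157 and suspensor signals of 1156 and 479. Embryo proper replicate 2 and suspensor replicate 1 were nearly equal, and suspensor replicate 2 was below background. The log2 difference was -0.84 with a 95% interval from -2.16 to 0.49 (adjusted p = 0.43 in limma). It was -1.46 and -0.21 without suspensor replicate 1 or 2. A further 4CL2 probe set stayed below background at 35 to 256. 4CL3 exceeded background on suspensor replicate 2 alone, at 1144, with 166 on the other suspensor array. The probe sets of 4CL, 4CL1 and 4CL4 were below background on every array.

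Chalcone synthase was represented by 12 probe sets, 7 for CHS1 and 5 for CHS8, and 10 of the 12 were below background on all 4 arrays. CHS8, which in soybean seeds is tied to isoflavonoid synthesis, had embryo proper signals of 1094 and 1122 and suspensor signals of 1389 and 729 by its tested probe set. The suspensor arrays lay on either side of the embryo proper arrays, and the log2 difference was -0.14 with a 95% interval from -1.29 to 1.02. It became 0.32 without suspensor replicate 2. The tested CHS8 probe set has shared probes and may read other transcripts, and which transcripts it read was not tested. The other CHS8 probe sets, with and without shared probes, were below background on all 4 arrays. CHS1 exceeded background on suspensor replicate 1 alone, at 1056, while the other suspensor array gave 258.

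Chalcone reductase, which acts with chalcone synthase to form the deoxychalcones of legumes, had 1 tested probe set among 5. CHR1 had embryo proper signals of 1219 and 579 and suspensor signals of 879 and 1148. It was above background on 1 array of each region, and the regions overlapped, with a log2 difference of 0.25 and a 95% interval from -1.07 to 1.57. The sign turned to -0.27 without embryo proper replicate 2. CHR3, CHR4 and CHR5 were below background on all arrays, with CHR4 reaching 777 and CHR5 at most 165.

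Chalcone isomerase was read by 12 probe sets, of which 3 were tested. CHI2-A, an isomerase of the type found across flowering plants, was above background on all 4 arrays, with embryo proper signals of 1512 and 1768 and suspensor signals of 2095 and 1517. The regions overlapped almost entirely. The log2 difference was 0.12 with a 95% interval from -0.76 to 1.01, so differences of more than about 2-fold in either direction lay outside the interval (adjusted p = 0.88 in limma). It was -0.11 without suspensor replicate 1.

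CHI4A is of a chalcone isomerase-like class. Its signals were 603 and 149 for embryo proper, both below background, and 1739 and 1111 for suspensor, both above. The mean signal was at least 1.57-fold higher in suspensor when the embryo proper arrays were set no lower than their lowest soybean signal above background. That fold takes no account of the spread between arrays. The probe set was tested through its suspensor signals alone, so the direction of the fold was fixed by the filter. The fitted log2 difference was 2.14 with a 95% interval from 0.11 to 4.17, but the adjusted p was 0.23 in limma (unadjusted p = 0.042). It was 3.09 and 1.18 without embryo proper replicate 1 or 2, signals that lie below background. The other CHI4A probe set, without shared probes, was below background on all 4 arrays, with 93 and 82 for embryo proper and 131 and 224 for suspensor.

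CHI3A1, also of a chalcone isomerase-like class, had embryo proper signals of 1352 and 1453 and suspensor signals of 470 and 1534 by its tested probe set. The lower suspensor array set the log2 difference of -0.71, which was 0.13 without suspensor replicate 1. Another CHI3A1 probe set repeated that contrast between suspensor arrays, at 58 and 1067, but the 2 share an identifier stem. CHI1A and CHI1B1, isomerases of the legume type that also accept deoxychalcones, had no tested probe set. CHI1A exceeded background at 971 on embryo proper replicate 1 alone and CHI1B1 at 1150 on suspensor replicate 2 alone.

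In the isoflavonoid branch, isoflavone synthase, which makes the isoflavone skeleton, was barely detected. IFS1 had embryo proper signals of 333 and 485 and suspensor signals of 463 and 1112, with suspensor replicate 2 alone above background. IFS2 was below background throughout, with 52 and 54 for embryo proper and 63 and 481 for suspensor. Isoflavone reductase acts later, on the way to the pterocarpan phytoalexins. The probe set of the gene listed as IFR had embryo proper signals of 1086 and 839 and suspensor signals of 1018 and 1348, overlapping regions with a log2 difference of 0.29 (95% interval from -0.77 to 1.35) that was 0.09 without suspensor replicate 2.

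IFR2 had embryo proper signals of 283 and 606 and suspensor signals of 953 and 1205. Both embryo proper arrays were below background and both suspensor arrays above it. The mean IFR2 signal was at least 1.22-fold higher in suspensor, without regard to the spread between arrays. The probe set was tested through its suspensor signals alone, so the direction of this fold was fixed by the filter. The fitted log2 difference was 1.33 with a 95% interval from -0.37 to 3.04 (adjusted p = 0.35 in limma). It was 0.81 and 1.86 without embryo proper replicate 1 or 2. The other IFR2 probe sets and all 4 IFR1 probe sets were below background on every array. IFR1 reached 874 on suspensor replicate 2, while its other signals were at most 349.

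UGT1, a UDP-glycosyltransferase of a class that attaches sugars to small molecules, had probe sets that disagreed in direction. It is grouped here with the isoflavonoid branch, but the annotation gives only its symbol, and whether it acts on isoflavonoids was not settled. By Gma.10650.1.S1_at its signals were 676 and 247 for embryo proper and 2474 and 1268 for suspensor, with both suspensor arrays above background and neither embryo proper array. By this probe set the mean signal was at least 2.00-fold higher in suspensor, without regard to the spread between arrays. The log2 difference was 2.07 with a 95% interval from 0.48 to 3.66. This was the smallest p of the members, 0.018 unadjusted and 0.17 adjusted in limma. The log2 difference was 2.77 and 1.37 without embryo proper replicate 1 or 2. The probe set was tested through its suspensor signals alone, so the direction of its fold was fixed by the filter.

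By GmaAffx.92715.1.S1_s_at the UGT1 signals were 1357 and 1252 for embryo proper and 242 and 759 for suspensor, the reverse order of regions. There the mean signal was higher in embryo proper by at least 1.33-fold, without regard to the spread between arrays. The log2 difference was -1.56 with a 95% interval from -3.24 to 0.12 (adjusted p = 0.28 in limma). It was -0.77 and -2.35 without suspensor replicate 1 or 2. This probe set, too, was tested through the signals of 1 region alone, here embryo proper. The probe set GmaAffx.93006.1.S1_s_at gave UGT1 embryo proper signals of 758 and 1059 and suspensor signals of 1184 and 82. The suspensor arrays were thus at opposite ends, and the log2 difference of -1.41 became 0.40 without suspensor replicate 2. A further UGT1 probe set, GmaAffx.82982.1.S1_at, had embryo proper signals of 224 and 69 and suspensor signals of 647 and 480. All 4 of these signals were below background. The probe sets GmaAffx.92715.1.S1_s_at and GmaAffx.93006.1.S1_s_at have shared probes and may read other UGT1-like transcripts, and the difference between the UGT1 probe sets was not tested.

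Downstream of naringenin, F3H, the flavanone 3-hydroxylase that leads to flavonols and anthocyanins, had embryo proper signals of 701 and 904 and suspensor signals of 1341 and 1477. Both suspensor signals were higher than both embryo proper signals. The log2 difference was 0.81 with a 95% interval from -0.22 to 1.84 (adjusted p = 0.35 in limma). The other F3H probe set had the opposite order of regions and was below background throughout, with 522 and 436 for embryo proper and 59 and 30 for suspensor.

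FLS1, the flavonol synthase that competes with the anthocyanin branch for dihydroflavonols, had embryo proper signals of 1331 and 1342 and suspensor signals of 282 and 895. The embryo proper arrays were close to each other and above background, and both suspensor arrays were below it. The mean FLS1 signal was higher in embryo proper by at least 1.36-fold, without regard to the spread between arrays. The log2 difference was -1.38 with a 95% interval from -2.97 to 0.22 (adjusted p = 0.31 in limma). It was -0.57 and -2.18 without suspensor replicate 1 or 2. This probe set was tested through its embryo proper signals alone. The other FLS1 probe set was below background on all 4 arrays and ran the other way, with 89 and 109 for embryo proper and 558 and 248 for suspensor.

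The anthocyanidin and proanthocyanidin branch was detected through 1 of its 5 probe sets. ANS2, an anthocyanidin synthase, had embryo proper signals of 1135 and 958 and suspensor signals of 915 and 59. Suspensor replicate 1 lay just under its background level of 925 and close to the embryo proper arrays, so suspensor replicate 2 carried the difference. The mean ANS2 signal was higher in embryo proper by at least 1.065-fold, without regard to the spread between arrays. The log2 difference was -2.00 with a 95% interval from -5.16 to 1.16, and it was -3.81 and -0.19 without suspensor replicate 1 or 2. ANS2 was tested through its embryo proper signals alone. The dihydroflavonol reductases DFR1 and DFR2, the anthocyanidin reductase ANR1 and the leucoanthocyanidin reductase LAR1 were below background on all arrays. DFR2 reached 833 on suspensor replicate 2 against 124 on the other suspensor array, and LAR1 was at most 87.

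SOMT-9 is an O-methyltransferase named from soybean. By Gma.1034.3.S1_a_at its signals were 2547 and 2691 for embryo proper and 1938 and 1162 for suspensor, above background on all 4 arrays and higher in embryo proper on both arrays. The log2 difference was -0.80 with a 95% interval from -1.72 to 0.12 (adjusted p = 0.31 in limma). It was -1.16 and -0.43 without suspensor replicate 1 or 2. Gma.1034.3.S1_at, a probe set with the same identifier stem, gave SOMT-9 embryo proper signals of 372 and 1248 and suspensor signals of 1019 and 776. Its log2 difference of 0.37 was -0.48 without embryo proper replicate 1. The third SOMT-9 probe set was below background on all arrays.

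**Figure D4:**
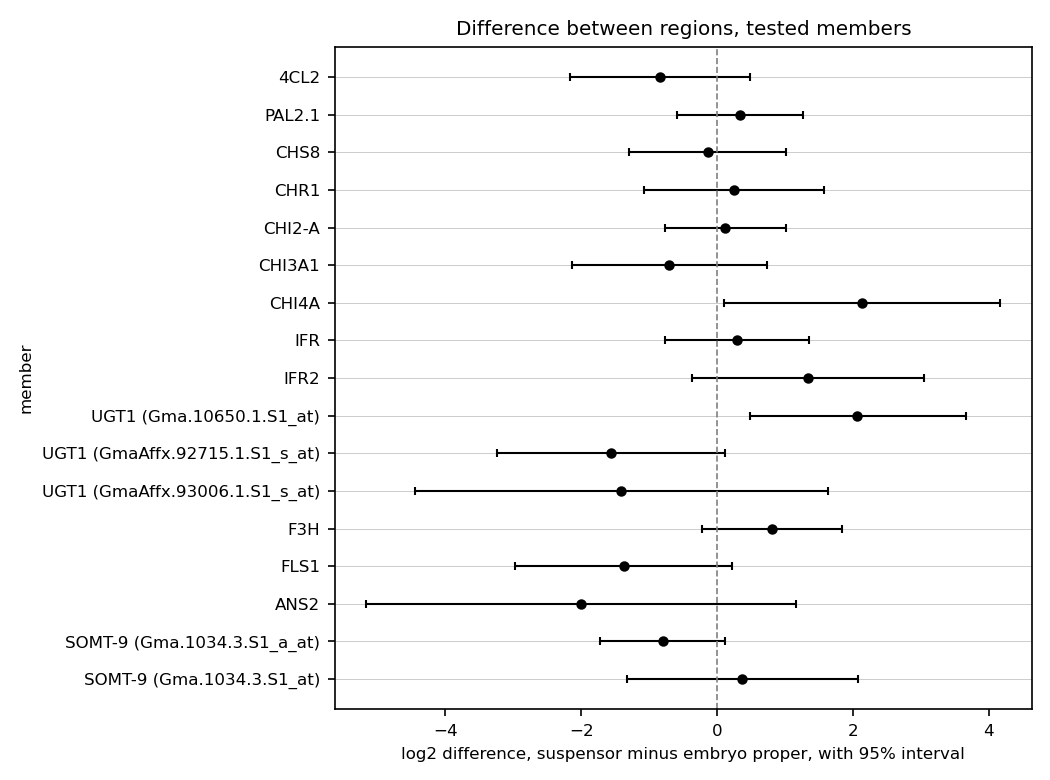
Log2 difference, suspensor minus embryo proper, of the 17 tested members with its 95% interval from the limma fit (2 arrays per region). The intervals of CHI4A and of UGT1 by Gma.10650.1.S1_at exclude 0 before adjustment, and both entered the test through the suspensor arrays alone; the other 15 include 0.

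Genes read by several probe sets mostly had 1 detected. Of 19 untested probe sets that belong to a gene with a tested one, 17 were below background on all 4 arrays. UGT1 and SOMT-9 were the 2 genes with more than 1 tested probe set, and in both the log2 differences had opposite signs.

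Other genes of the pathway, taken from lists of symbols, were no better detected. Of 10 probe sets for cinnamate 4-hydroxylase (C4H) and monolignol enzymes, 0 were tested. C4H, which acts between PAL and 4CL, had embryo proper signals of 243 and 433 and suspensor signals of 581 and 600 by its brighter probe set, all below background. Of 26 probe sets for other isoflavonoid and flavonoid enzymes, 4 were tested and 0 called in either direction. IF7MaT, which adds malonyl groups to isoflavone glucosides, had embryo proper signals of 982 and 574 and suspensor signals of 956 and 1478. Its log2 difference was 0.65 (adjusted p = 0.52 in limma). This probe set has shared probes, and the other IF7MaT probe sets were below background on all arrays. F6H1, a flavonoid hydroxylase, had a log2 difference of -1.47 with suspensor signals of 1000 and 88. The other 2 tested probe sets were for CYP93E1, which works in soyasaponin synthesis and not on flavonoids, with log2 differences of -1.63 and -0.05. The CYP93E1 probe set at -0.05 has shared probes. HIDH, the dehydratase that completes isoflavone synthesis, was below background on all arrays by each of its probe sets.

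Of 7 probe sets for regulators, 1 was tested. MYB176, which regulates CHS8 in soybean, had embryo proper signals of 1004 and 986 and suspensor signals of 910 and 1895. The regions overlapped, with a log2 difference of 0.40 (adjusted p = 0.68 in limma). The MYB176 probe set has shared probes, and which transcripts it read was not tested. No symbol matched the list for phenylalanine supply.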

How the data were processed

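The authors deposited linear intensities, 1 for each probe set; per the submitters' processing notes the tool was GCOS 1.3. How it summarised probes is not given in the sources used here. On each array the mean without the outer 2% at each end was 500, and the arrays were used on that scale. RNA was amplified before labelling, per the labels' protocols.

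Soybean probe sets above the background level on at least 2 of 4 arrays (8972) were tested with limma 3.58.1 in R 4.3.3: log2(intensity + 16), lmFit, eBayes (variance trend on), with p-values adjusted over all 8972 by Benjamini-Hochberg. The fit was also run on simulated data with normal noise from the fitted variances, which these arrays need not follow. No result given here rests on that run. A fold "at least" sets each dim array to the higher of its own value and its lowest soybean signal above background. It compares mean log2 signals of these arrays and sets no limit that allows for their spread. Towards suspensor its direction was fixed by the filter, since background was higher on both suspensor arrays. With 2 arrays per region, their number limits precision. The suspensor replicates agreed less than the embryo proper replicates over the tested probe sets (Pearson r 0.81 against 0.89). Gene names are the symbols of the platform annotation; the reference gene table of the bean was not used, so no positions are given.

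Every member above background on any array was to be named. Members and lists were chosen with earlier results of these data known. Same-numbered replicates were not taken as pairs: their deviations had a correlation of -0.024 across probe sets, and no label says what a number stands for. Alternatives covered pseudocount, scaling, background level, filter, shared probes, variance trend, replicate block and leaving out each array.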

Additional observations from a re-analysis of the deposited data

How the results depend on the processing

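No tested member was called in any of 15 alternative settings of the limma fit (220 values, lowest adjusted p 0.071, for ANS2 without suspensor replicate 1), and the counts stayed 0 with 1 probe set per gene. Over all tested probe sets the calls ranged from 3 in each direction, without embryo proper replicate 2, up to 192 towards suspensor with detection on all 4 arrays and 1054 towards embryo proper without suspensor replicate 1. When 1 array is left out, the lone array is assumed to vary like the other region. With the replicate block the members' median log2 difference was 0.12 as without it, and 0 members were called. That median was -0.042 under centring on the control probe sets (Phytophthora and nematode) and ran from -0.15 to 0.32 when 1 array was left out; the same centring moved the median of all tested probe sets from -0.18 to -0.35, so it shifts all members alike. Members above background on both embryo proper arrays numbered 9, but 3 at the 99th percentile and 5 of 42 without shared probes; on both suspensor arrays they numbered 8, but 1 at the 99th percentile, where signal over background leaves few. Signs turned in 7 of the 220 values, in 6 members. CHI2-A, the member at the median, was -0.042 under the control centring, which is that same common shift. When 1 array was left out, CHI2-A ran from -0.11 to 0.35, SOMT-9 by Gma.1034.3.S1_at from -0.48 to 1.22, CHR1 from -0.27 to 0.78, CHI3A1 from -1.54 to 0.13, CHS8 from -0.59 to 0.32 and UGT1 by GmaAffx.93006.1.S1_s_at from -3.21 to 0.40; in each the replicates of 1 region differ by more than the regions do. The other 11 members kept their sign in every setting in which they were tested, but 10 of them, all but F3H (0.63 to 0.99), moved by over 1.5 times on the log2 scale when 1 array was left out, as given beside each.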
